A study of Mus musculus with 12 samples.

Results

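Solute carriers are membrane proteins that move small molecules across the plasma membrane and the membranes of organelles, and 81 genes with Slc symbols were expressed in the mouse B cells measured here. They were chosen by their signal: of 18193 genes with a single symbol on the array, 347 have a symbol that begins with Slc and a number, and the 81 members are those whose brightest probe set had a mean log2 signal of 6 or more over all 12 arrays. The other 266 were under that mean. Follicular B cells, which circulate between spleen, lymph nodes and blood, were sorted on B220, on high CD23 and on low CD21 from spleens of C57Bl/6 mice 6 weeks old. The mice were wild type (WT) or carried the IkL/L alleles of Ikzf1, which lower the level of the transcription factor Ikaros. Cells of each genotype were cultured for 3 h without stimulus, for 3 h with anti-IgM or for 12 h with anti-IgM, given as 10 µg/ml of goat F(ab')2 fragments that cross-link the B cell receptor. Each of the 6 groups held 2 arrays (n = 2 throughout), and no array of unstimulated cells was cultured for 12 h, so the 12 h comparisons differ in culture time as well as in stimulus. How many mice gave the cells of an array, and whether the replicates of a group came from separate mice, is not stated. The WT replicates differ in sex by their transcripts (below), so they came from different mice. For the IkL/L replicates this is unknown. The p-values reflect only how far these samples lie apart, which in IkL/L cells may be technical.

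Carriers set what a lymphocyte can take up and exchange. A resting B cell needs few nutrients, while a cell that has bound antigen grows before it divides and draws on amino acids, glucose, folate, nucleosides, phosphate and metal ions. Some carriers of the Slc7 family form dimers with the glycoprotein Slc3a2 to exchange large amino acids. Slc1a5 and the Slc38 family carry glutamine and other neutral amino acids. Slc39 proteins bring zinc into the cytosol and Slc30 proteins take it out. Most proteins of the Slc25 family span the inner mitochondrial membrane and exchange nucleotides, phosphate, acids and cofactors with the cytosol.

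The member means ran from 6.00 to 12.15, which is what chose them and is given as a description. The members just inside the minimum were Slc38a9 (6.00), Slc25a38 (6.01), Slc22a5 (6.02) and Slc10a7 (6.02), and those just outside were Slc35a2 (5.99), Slc35e3 (5.86), Slc25a37 (5.86) and Slc25a22 (5.85). In 60 members every group mean was at 6 or more. The other 21 had a group mean under 6. Some of these, Slc43a2, Slc38a9, Slc7a3, Slc10a7 and Slc25a53 among them, passed only through the groups in which they were high. Counts of calls over the members are therefore a description. By substrate, 20 members are carriers of the Slc25 family, 16 carry amino acids or peptides, 13 metal ions, 6 sit in the ER or Golgi, 5 carry inorganic ions or protons, 4 monocarboxylates or organic ions, 3 sugars, 3 vitamins, choline or related molecules and 2 nucleosides or nucleobases. Of the remaining 9, 6 have another or no assigned substrate and 3 (Slc9a3r1, Slc7a6os and Slc4a1ap) are named after a carrier without being one.

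Replicates of a group correlated over the members with r between 0.958 and 0.986, and 6 of the 7 measured T cell markers and all 4 measured NK cell markers were under the signal floor of 4.21 on every array. Of the 9 myeloid markers 5 were under it, and the log2 of the summed myeloid signal ran from 6.33 to 8.32 over the arrays. The summed B cell markers were lower after anti-IgM: 13.78 to 13.87 in unstimulated WT cells, 12.17 to 12.43 at 3 h and 12.51 to 12.52 at 12 h. In IkL/L cells they were 13.31 to 13.48, 11.56 to 11.74 and 11.90 to 12.47. Of the 5 marginal zone B cell markers, 1 was called higher in IkL/L than in WT cells and 4 were not called, in each of the 3 conditions. The summed plasma cell markers, led by Irf4, went from 10.60 to 10.66 in unstimulated WT cells to 12.16 at 3 h. The 5 markers did not move together: 2 were called higher, 1 lower and 2 were not called. Sdc1 went from a mean of 6.41 to 4.04, under the floor, at least 4.61-fold lower. The summed dendritic cell markers were 6.43 to 6.83 in unstimulated IkL/L cells and 7.29 to 7.61 at 3 h, where 2 of the 5 (Flt3 and Zbtb46) were called higher and the other 3 were under the floor on every array. The female transcript Xist read between 10.0 and 10.7 on the 3 WT replicate 1 arrays and between 3.19 and 3.48 on the other 9, so that the WT replicates differ in sex while all IkL/L arrays read as male. The part of sex or of these markers in the results was not tested.

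The first question was how the carriers of WT cells answered 3 h of cross-linking. Of the 81 members, 29 rose and 15 fell at an adjusted p under 0.05, where 9.15% of all genes rose and 10.2% fell. Over the 5607 genes that reach the same minimum signal the shares were 24.2% higher and 19.8% lower, against 35.8% and 18.5% of the members. The median log2 difference was 0.17 over the members, 0.06 over those 5607 genes and 0.02 over all genes. When each array was left out in turn, 28 of the 44 calls held every time, and 22 held under every setting tried. With a minimum mean of 6.5 in place of 6 the counts were 28 higher and 10 lower, so a part of the falls comes from members near the minimum. The 15 rises among these 22 include carriers of peptides, lactate, folate, zinc and amino acids, and the 7 falls include 4 mitochondrial carriers.

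**Figure D1:**
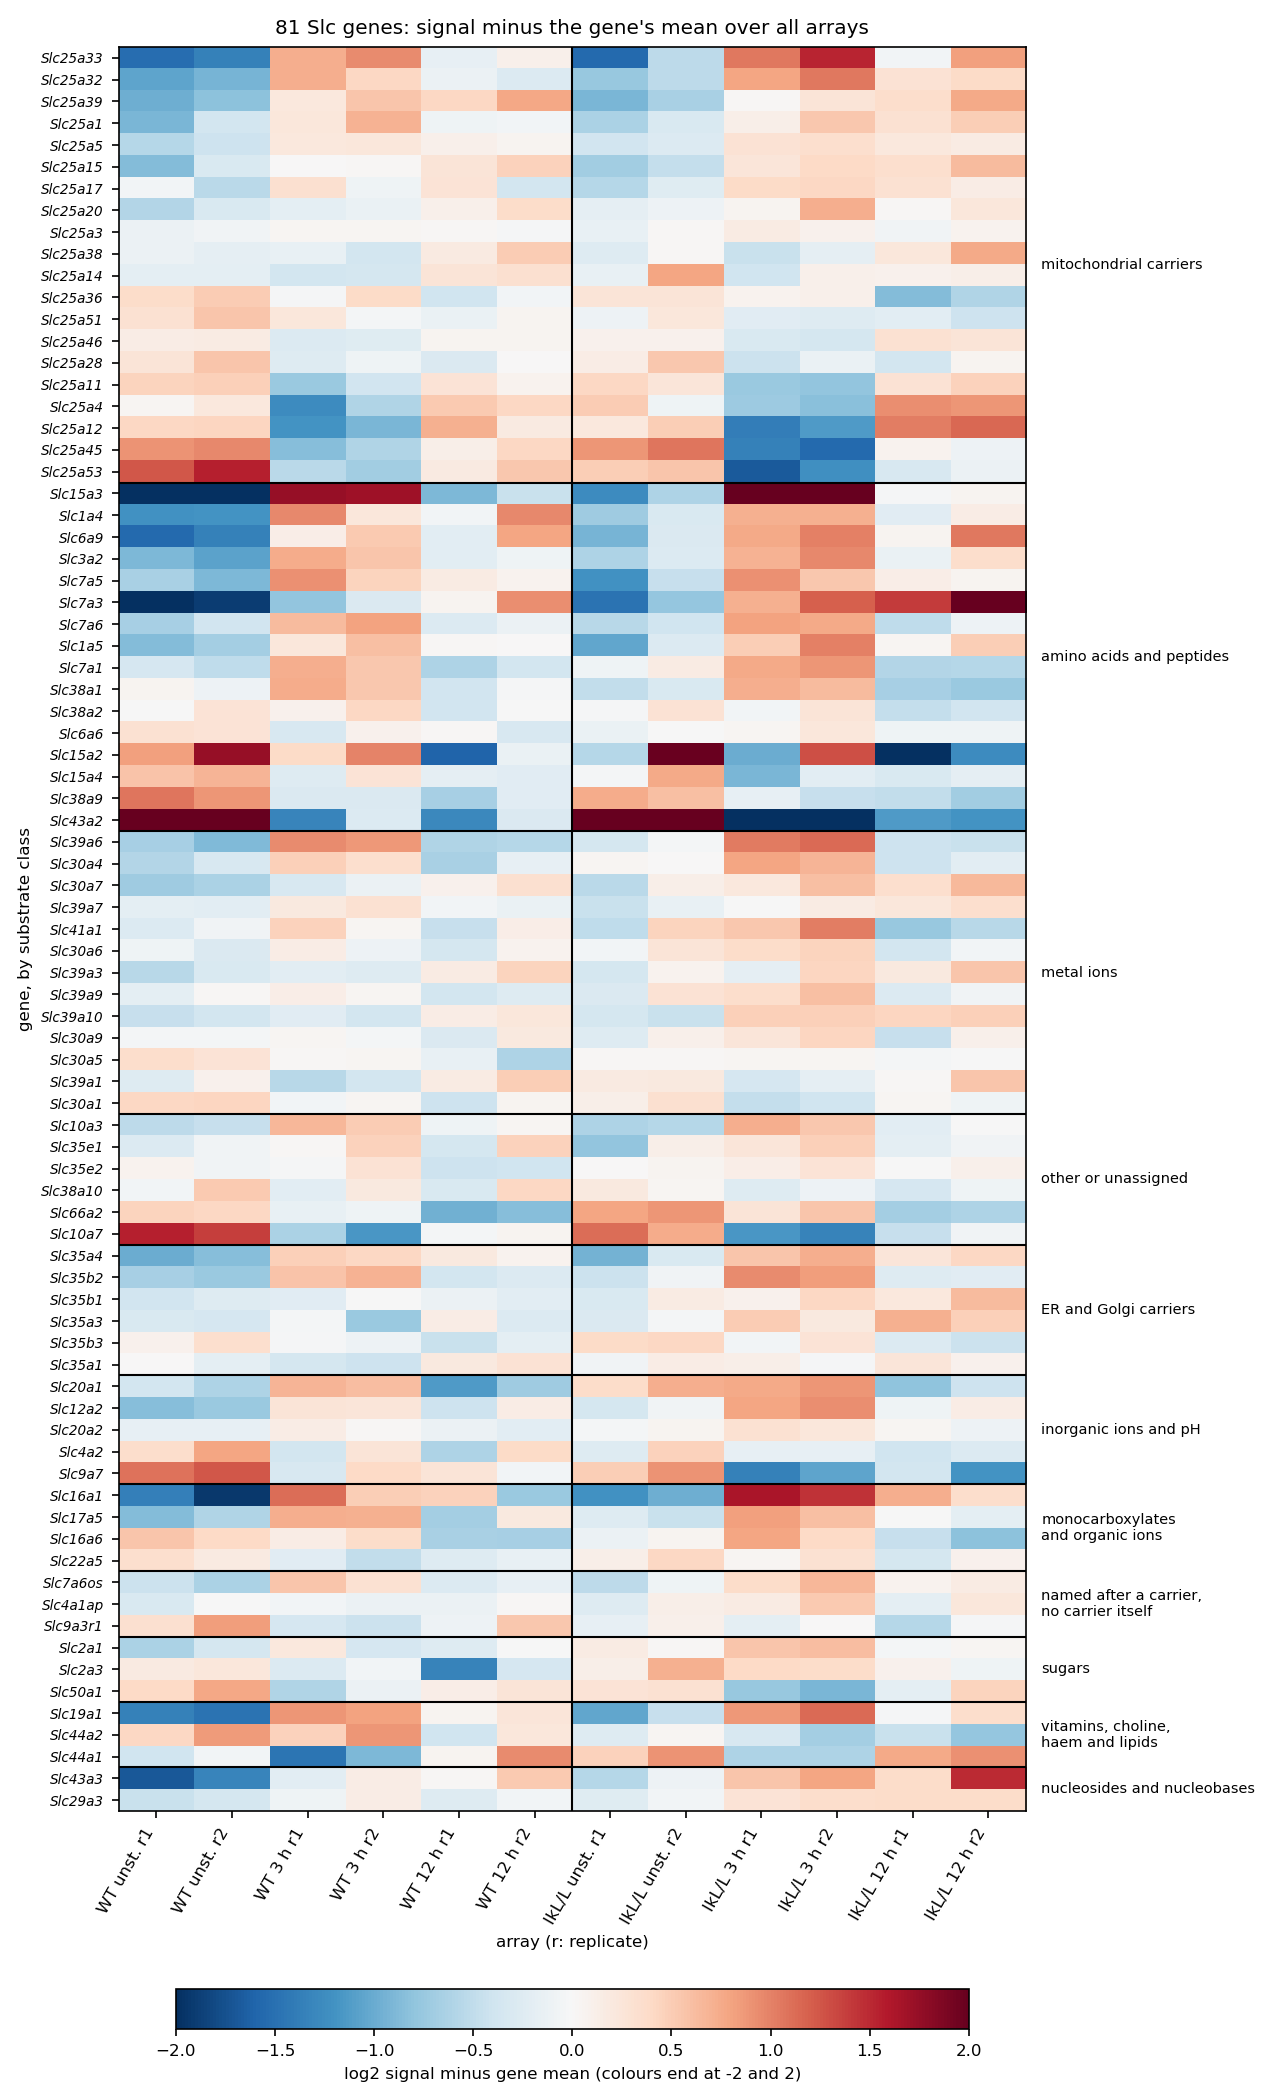
Heat map of the log2 signal of each of the 81 members minus that member's mean over all arrays, with a column per array (unst., unstimulated; r, replicate) and rows sorted by substrate class and by the difference in WT cells at 3 h. Most amino acid carriers turn from blue to red at 3 h in both genotypes, while the lower rows of the mitochondrial block turn blue at 3 h and return toward red at 12 h; colours end at -2 and 2.

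Among the 16 carriers of amino acids and peptides 9 rose and 2 fell in WT cells at 3 h, with a median log2 difference of 1.12. These are 56.2% and 12.5%, against 24.2% and 19.8% of genes with the same minimum signal and 9.15% and 10.2% of all genes. Slc15a3, which exports histidine and small peptides from lysosomes and endosomes, changed most of all members. Its log2 signals were 6.35 and 6.66 in unstimulated WT cells, 10.44 and 10.40 at 3 h and 7.81 and 8.25 at 12 h, so that the 3 conditions did not overlap. The rise at 3 h was 15.1-fold (log2 3.91, SE 0.21, adjusted p = 6.41e-06), and 2.88-fold was left at 12 h (log2 1.53, SE 0.21, adjusted p = 0.000685). Slc3a2, the shared heavy chain of the large amino acid exchangers, read 10.18 and 10.01 without stimulus and 11.82 and 11.63 at 3 h, a 3.09-fold rise (log2 1.63, SE 0.18, adjusted p = 0.000165).

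Slc7a5 and Slc7a6, light chains that pair with Slc3a2, rose beside it. Slc7a5, which takes up leucine and other large neutral amino acids, read 6.89 and 6.64 without stimulus and 8.46 and 8.0 at 3 h (2.75-fold, log2 1.46, SE 0.24, adjusted p = 0.00174). Slc7a6, which exchanges cationic for neutral amino acids, read 6.90 and 7.18, then 8.20 and 8.36 (2.37-fold, log2 1.24, SE 0.16, adjusted p = 0.000333). Slc7a1, a carrier of arginine and lysine that works without Slc3a2, read 11.20 and 11.03, then 12.26 and 12.07 (2.07-fold, log2 1.05, SE 0.14, adjusted p = 0.000436). The stimulated arrays lay above the unstimulated ones for all 3 genes, and the calls held with any single array left out.

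Slc1a4, Slc6a9, Slc1a5 and Slc38a1, carriers of neutral amino acids, rose as well. Slc1a4, which exchanges alanine, serine and cysteine, read 6.46 and 6.47, then 8.63 and 7.90 (3.48-fold, log2 1.80, SE 0.32, adjusted p = 0.00261). Slc6a9, a glycine transporter, rose 3.43-fold (adjusted p = 0.00713), a call lost without unstimulated WT replicate 1 (adjusted p = 0.0511) or WT 3 h replicate 2 (0.0562). Slc1a5, the main glutamine exchanger of many dividing cells, rose 2.28-fold (adjusted p = 0.00946), a call lost without the same arrays (0.0684 and 0.0762). Slc38a1, another glutamine carrier, rose 1.57-fold (adjusted p = 0.00932), lost without unstimulated WT replicate 2 (0.0792), without WT 3 h replicate 1 (0.0788) and when arrays were scaled to equal housekeeping signal (0.0595). Its relative Slc38a2 read 10.80 and 11.08 without stimulus and 10.91 and 11.23 at 3 h, a log2 difference of 0.13.

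The 2 amino acid carriers called lower were Slc43a2 and Slc38a9. Both reached the minimum mean only through their unstimulated cells, since every stimulated group mean was under 6, so their falls are a description of members that the rule admitted through the high groups. Slc43a2, which lets branched-chain and aromatic amino acids pass down their gradient, read 8.59 and 9.22 in unstimulated WT cells, 4.73 and 5.78 at 3 h and 4.76 and 5.77 at 12 h. The 3 h level was 12.6-fold lower (log2 -3.65 with an SE of 0.37, adjusted p = 8.82e-05) and the 12 h level 12.5-fold lower. Slc38a9, a lysosomal protein that reports arginine to the growth kinase mTORC1, read 7.07 and 6.89, then 5.71 on both 3 h arrays and 5.34 and 5.78 at 12 h. Its fall was 2.41-fold at 3 h (log2 -1.27, SE 0.17, adjusted p = 0.00041) and 2.68-fold at 12 h.

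Promoter sequences were searched for a pair of growth-related motifs. The RefSeq table on GRCm38.p6 held 78 promoters of 62 of the 81 members, each from 250 bases before to 50 after a start site. The letters searched on both strands were CACGTG (the E-box that Myc and related factors bind) and TGATGNAA (the core of the amino acid response element that Atf4 binds); neither motif contains the other. An E-box stood in 9 of the 78 promoters (11.5%) and in 7.15% of all 32851 promoters, and the amino acid response element core in 2 (2.56%) and in 3.97%. Of the 4 members shown, Slc1a4 holds the core across its start, written in capitals as its reverse complement, and Slc16a1 holds an E-box whose first base is at -200 from its start, in capitals. No match stood in the windows of Slc3a2 and Slc43a2, shown as a carrier that rose and as the member with the largest fall. The promoters of Slc6a9 and Slc7a6, which rose, and of Slc10a7, Slc25a53, Slc25a45 and Slc25a12, which fell, held no match either. For Slc15a3 and Slc7a5 the table held no promoter. Among members not shown, the core also stood in a promoter of Slc50a1, which fell in WT cells at 3 h. E-boxes stood in promoters of Slc20a1, Slc25a1, Slc25a15 and Slc25a33, which rose in WT cells at 3 h. They also stood in promoters of Slc25a14, Slc25a36 and Slc30a5, which were not called there. Whether either motif goes with rises or falls was not tested. Slc16a1 was added after the scan, as the largest rise with an E-box. Each sequence runs 5′ to 3′ along the gene and ends 30 bases after the start; a match is a description of these letters, and no match says nothing of the factor.
Slc1a4, chr11:20332684-20332963, reverse strand: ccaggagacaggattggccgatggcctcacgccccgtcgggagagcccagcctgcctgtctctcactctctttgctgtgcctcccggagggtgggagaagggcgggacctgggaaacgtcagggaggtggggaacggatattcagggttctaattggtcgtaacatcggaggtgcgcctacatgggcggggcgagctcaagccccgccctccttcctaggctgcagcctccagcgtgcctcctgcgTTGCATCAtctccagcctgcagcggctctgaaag
Slc16a1, chr3:104638414-104638693, forward strand: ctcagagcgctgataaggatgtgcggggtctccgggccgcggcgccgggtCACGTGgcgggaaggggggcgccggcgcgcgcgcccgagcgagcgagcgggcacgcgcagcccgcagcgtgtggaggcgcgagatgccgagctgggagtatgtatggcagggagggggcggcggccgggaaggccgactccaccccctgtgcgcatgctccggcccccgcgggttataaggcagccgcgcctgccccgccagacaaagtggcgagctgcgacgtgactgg
Slc3a2, chr19:8713868-8714147, reverse strand: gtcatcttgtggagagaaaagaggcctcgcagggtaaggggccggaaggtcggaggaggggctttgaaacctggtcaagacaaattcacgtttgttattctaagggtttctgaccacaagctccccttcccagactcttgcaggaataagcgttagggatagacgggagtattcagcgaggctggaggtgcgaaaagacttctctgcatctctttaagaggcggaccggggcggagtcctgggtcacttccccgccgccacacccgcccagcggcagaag
Slc43a2, chr11:75531444-75531723, forward strand: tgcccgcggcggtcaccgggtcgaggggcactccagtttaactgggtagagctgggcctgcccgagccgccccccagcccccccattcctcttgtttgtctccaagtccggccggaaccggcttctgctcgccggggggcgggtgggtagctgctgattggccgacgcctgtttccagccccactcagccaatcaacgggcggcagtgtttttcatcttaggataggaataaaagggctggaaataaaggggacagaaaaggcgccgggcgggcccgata

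**Figure D2:**
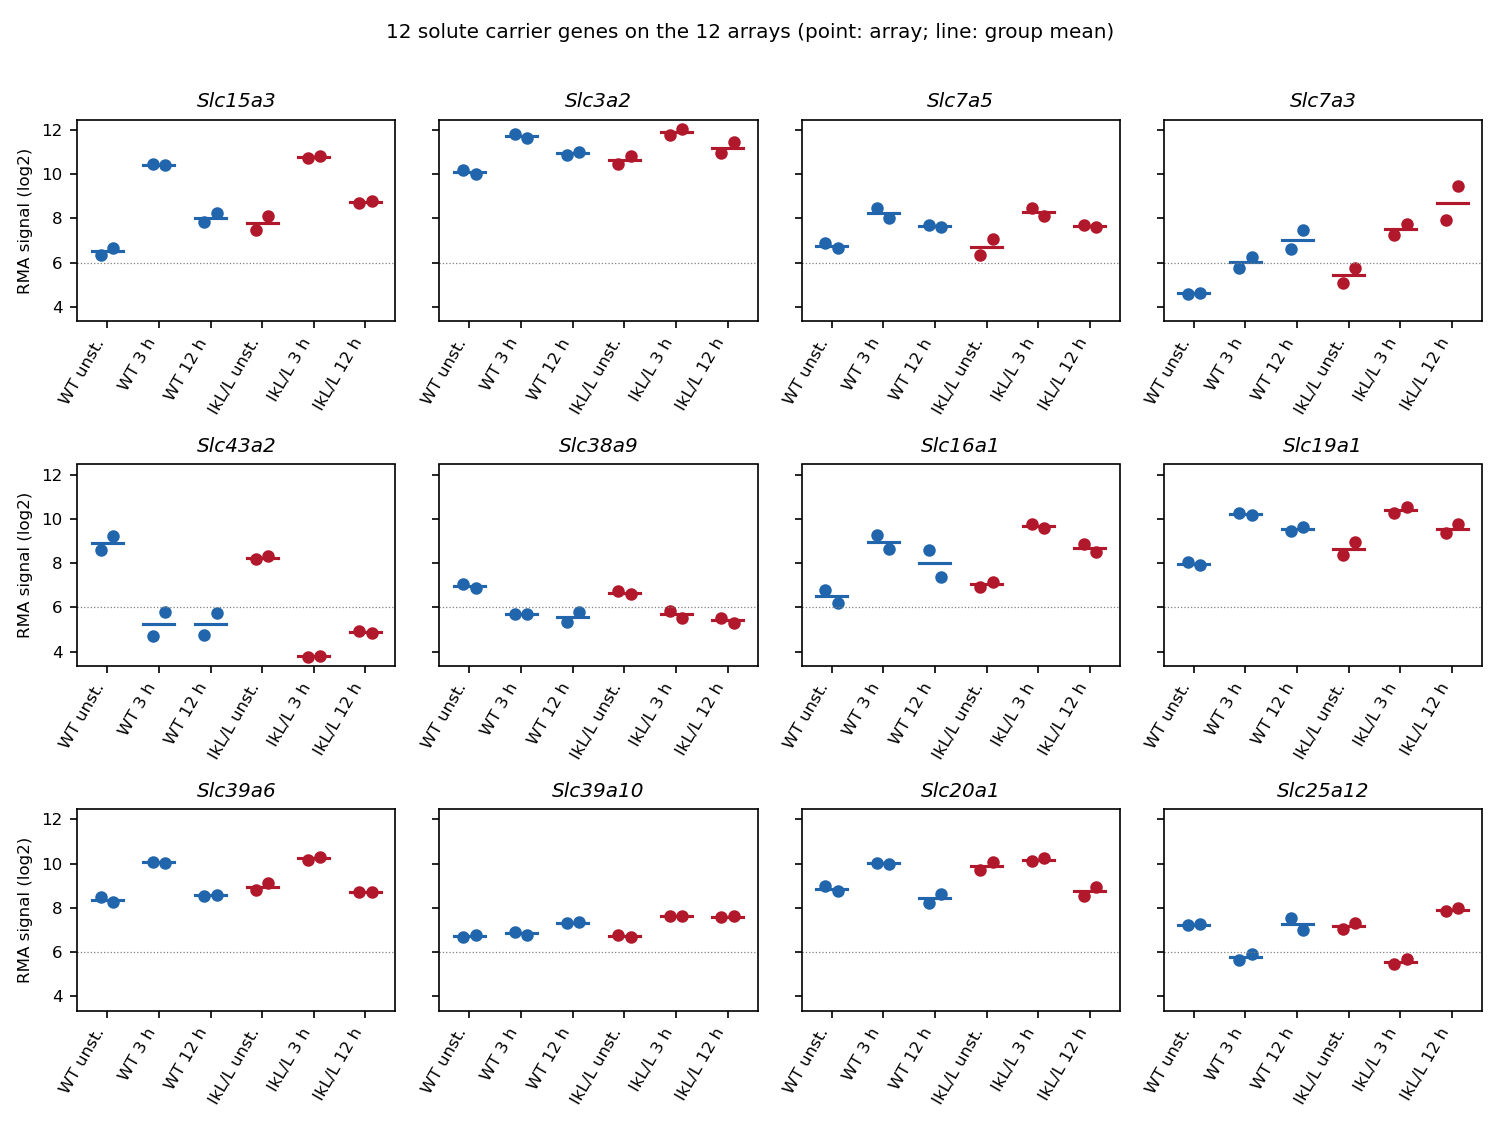
Log2 RMA signal of 12 members on the 12 arrays, 1 point per array and a line at the mean of each group (blue WT, red IkL/L; unst., unstimulated; the dotted line is the mean of 6 that the choice of members used). Slc15a3 stands at 10.40 to 10.82 on the 4 arrays of 3 h and at 6.35 to 8.09 on the 4 unstimulated ones, and Slc43a2 is at 8.16 or more on every unstimulated array and at 5.78 or less on every stimulated one.

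Slc16a1, Slc19a1 and Slc17a5 also rose in WT cells at 3 h. Slc16a1, the monocarboxylate transporter that passes lactate and pyruvate, read 6.77 and 6.22 without stimulus and 9.25 and 8.63 at 3 h, a 5.46-fold rise (log2 2.45, SE 0.36, adjusted p = 0.000804). Slc19a1, the reduced folate carrier, read 8.04 and 7.91, then 10.27 and 10.19, a 4.77-fold rise (log2 2.25, SE 0.20, adjusted p = 4.93e-05). Slc17a5, which exports sialic acid from lysosomes, rose 2.73-fold (log2 1.45, SE 0.24, adjusted p = 0.00164). These 3 genes did not overlap between the conditions and kept their calls with every array left out.

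The weaker calls of these classes depended on single arrays. Slc43a3, a carrier of purine nucleobases, rose 2.77-fold (adjusted p = 0.0105; 0.0829 without unstimulated WT replicate 1 and 0.0768 without WT 3 h replicate 2). Slc29a3, a nucleoside carrier of lysosomes, rose 1.35-fold (adjusted p = 0.041), a call lost without either unstimulated WT array, WT 3 h replicate 2 or any stimulated IkL/L array (up to 0.248) and under housekeeping scaling (0.288). Slc44a1, a choline transporter, fell 1.94-fold (adjusted p = 0.0408), lost without either unstimulated WT array, WT 3 h replicate 1 or any stimulated IkL/L array (up to 0.281) and under housekeeping scaling (0.121). Slc22a5, which takes up carnitine, fell 1.54-fold (adjusted p = 0.0312; 0.177 and 0.0782 without unstimulated WT replicate 1 or 2 and 0.193 without WT 3 h replicate 2).

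Of the 13 metal ion carriers 3 rose and none fell at an adjusted p under 0.05 in limma, while 4 had an unadjusted p under 0.05; the 23.1% that rose lies near the 24.2% of all genes with the same minimum signal. Slc39a6, a zinc importer of the plasma membrane, read 8.48 and 8.27 without stimulus, 10.09 and 10.02 at 3 h and 8.55 and 8.57 at 12 h (3.2-fold at 3 h, log2 1.68, SE 0.13, adjusted p = 2.34e-05). Slc30a4, which loads zinc into vesicles, rose 1.82-fold (log2 0.86, SE 0.17, adjusted p = 0.00452). Slc39a7, which releases zinc from the ER, rose 1.37-fold (adjusted p = 0.0302), lost without any of the 4 WT arrays compared (up to 0.155). Of the 5 carriers of inorganic ions, Slc20a1, the sodium-dependent phosphate importer, read 8.98 and 8.74, then 10.03 and 9.98 (2.21-fold, log2 1.14, SE 0.19, adjusted p = 0.00173). Slc12a2, the sodium, potassium and chloride cotransporter that counters shrinkage, read 6.32 and 6.43, then 7.42 on both arrays (2.06-fold, log2 1.04, SE 0.18, adjusted p = 0.00232). Slc9a7, a sodium and proton exchanger of the Golgi, fell 2.19-fold (adjusted p = 0.0222), lost without either unstimulated WT array or WT 3 h replicate 1 (up to 0.187).

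Of the 20 carriers of the Slc25 family 6 rose and 6 fell (30% each) in WT cells at 3 h, and their median log2 difference was -0.14. Of genes with the same minimum signal 24.2% rose and 19.8% fell, and of all genes 9.15% and 10.2%. Slc25a33, which imports pyrimidine nucleotides, read 5.87 and 6.04 without stimulus and 8.11 and 8.35 at 3 h (4.83-fold, log2 2.27, SE 0.35, adjusted p = 0.00101). Slc25a32, which brings folate and FAD into mitochondria, read 5.55 and 5.67, then 7.32 and 7.01 (2.94-fold, log2 1.55, SE 0.15, adjusted p = 7.19e-05). Slc25a39, the mitochondrial glutathione carrier, read 8.88 and 9.04, then 10.07 and 10.40 (2.42-fold, log2 1.27, SE 0.19, adjusted p = 0.00101). Slc25a5, the ADP and ATP exchanger of dividing cells, rose 1.64-fold (log2 0.71, SE 0.11, adjusted p = 0.000865). Slc25a1, which exports citrate, rose 2.15-fold (adjusted p = 0.00616), lost without unstimulated WT replicate 1 (0.0601) or WT 3 h replicate 2 (0.0569), and the rise of the ornithine carrier Slc25a15 (adjusted p = 0.0484) was lost without any 1 of the arrays other than unstimulated WT replicate 2 (up to 0.369).

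Of the 6 members of the family that fell, 4 kept their calls with every array left out. Slc25a53 read 7.34 and 7.65 without stimulus, 5.56 and 5.40 at 3 h and 6.28 and 6.63 at 12 h (4.05-fold lower at 3 h, log2 -2.02, SE 0.19, adjusted p = 6e-05). Slc25a45 read 7.49 and 7.54, then 5.73 and 5.98, then 6.70 and 7.0 (3.16-fold lower at 3 h, log2 -1.66, SE 0.15, adjusted p = 5.04e-05). Slc25a12, the aspartate and glutamate carrier of the malate-aspartate shuttle, read 7.24 and 7.25, then 5.63 and 5.91, then 7.54 and 7.01 (2.78-fold lower at 3 h, log2 -1.48, SE 0.19, adjusted p = 0.000322). Slc25a11, the oxoglutarate and malate carrier of the same shuttle, read 7.32 and 7.34, then 6.14 and 6.49, then 7.14 and 6.94 (2.03-fold lower at 3 h, log2 -1.02, SE 0.14, adjusted p = 0.000614). For these 4 genes no 3 h array reached the level of an unstimulated one. The 3 h means of Slc25a53, Slc25a45 and Slc25a12 were under 6 in both genotypes. That of Slc25a53 was under 6 at 12 h in IkL/L cells too. Slc25a53 reached the minimum mean only through its other groups, so its fall is a description.

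Slc25a4 and Slc25a46 fell on weaker grounds. Slc25a4, the ADP and ATP exchanger of muscle and other resting tissues, fell 2.07-fold (adjusted p = 0.00722), lost without unstimulated WT replicate 2 (0.0577) or WT 3 h replicate 1 (0.0607). Slc25a46, an outer membrane protein, fell 1.33-fold (adjusted p = 0.0117), lost without unstimulated WT replicate 1 (0.0572), unstimulated WT replicate 2 (0.0749) or WT 3 h replicate 1 (0.066) and under housekeeping scaling (0.161). The phosphate carrier Slc25a3 read between 12.00 and 12.31 on all 12 arrays and was not called in any comparison.

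**Figure D3:**
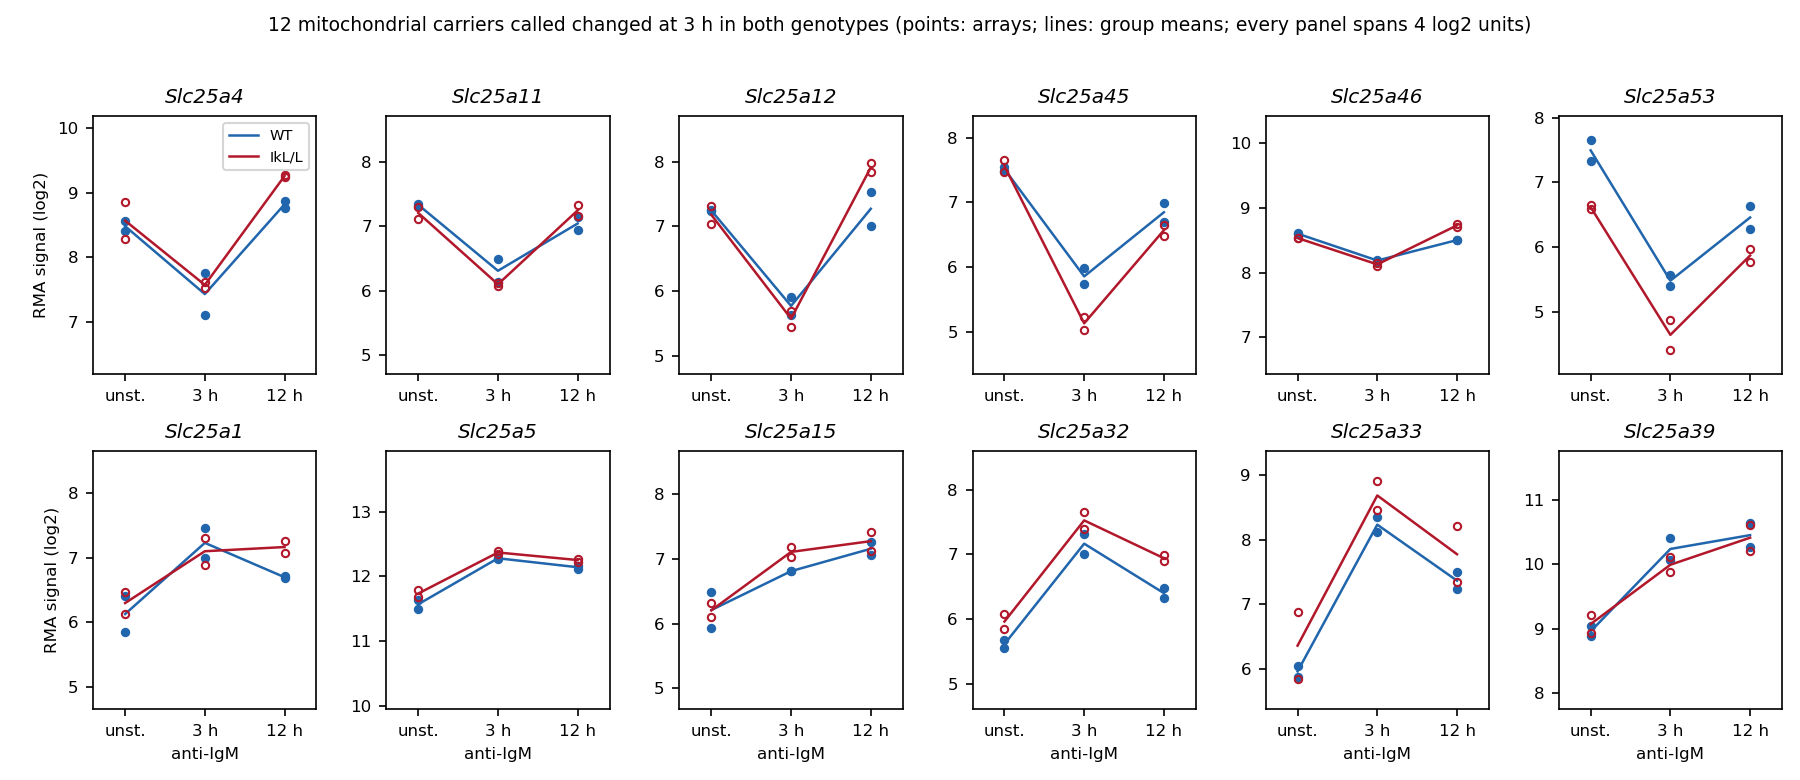
Log2 RMA signal of the 12 Slc25 carriers called at 3 h in both genotypes, with a point per array and lines through the group means (filled blue WT, open red IkL/L; unst., unstimulated; every panel spans 4 log2 units). The upper 6 carriers are lowest at 3 h and the lower 6 are higher at 3 h than without stimulus; Slc25a12 goes from 7.24 and 7.25 to 5.63 and 5.91 and back to 7.54 and 7.01 in WT cells.

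The remaining classes are small. Of the 3 sugar carriers only Slc50a1, which lets glucose pass both ways, was called in WT cells at 3 h (1.92-fold lower, adjusted p = 0.0138), and the call was lost without unstimulated WT replicate 2 (0.121), without WT 3 h replicate 1 (0.123) and under housekeeping scaling (0.0514). The glucose transporter Slc2a1 read 6.51 and 6.81 without stimulus, 7.36 and 6.82 at 3 h and 6.90 and 7.15 at 12 h, and Slc2a3 read 7.38 and 7.43, then 6.93 and 7.16. Of the 6 ER and Golgi carriers, Slc35a4 rose 2.58-fold (log2 1.37, SE 0.19, adjusted p = 0.000523) and Slc35b2, which brings the sulfate donor PAPS into the Golgi, rose 2.53-fold (log2 1.34, SE 0.13, adjusted p = 8.11e-05). Slc10a3 rose 2.10-fold (log2 1.07, SE 0.12, adjusted p = 0.000174). Slc10a7 read 7.58 and 7.40 without stimulus, 5.39 and 4.86 at 3 h and 5.99 and 6.08 at 12 h, a 5.16-fold fall at 3 h (log2 -2.37, SE 0.20, adjusted p = 4.31e-05). Its means were under 6 at 3 h in both genotypes and at 12 h in IkL/L cells. It is a member only through its other groups, so this fall is a description. Slc38a10, the brightest member with no assigned substrate, lay between 8.23 and 9.10 on all arrays and was called in no comparison.

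After 12 h in WT cells 21 members were higher and 13 lower than in unstimulated cells, where 10.1% of all genes were higher and 8.66% lower, and 25.3% and 18.3% of the genes with the same minimum signal. Of these 34 calls, 18 held with every array left out in turn; 22 were made without unstimulated WT replicate 1 and 19 without replicate 2. Scaling to the housekeeping genes left 9 higher and 10 lower, a share of higher calls of 47.4% against 61.8%. That scaling moves every 12 h difference of WT cells by -0.15 and turns the sign of the members' median, which was 0.11. Slc43a3 (3.43-fold), Slc1a4 (3.16-fold), Slc19a1 (2.96-fold), Slc15a3 (2.88-fold) and Slc25a39 (2.81-fold) were higher at 12 h with any array left out and under both scalings. The arginine and lysine carrier Slc7a3 read 4.57 and 4.65 without stimulus, 5.76 and 6.26 at 3 h and 6.61 and 7.47 at 12 h, 5.40-fold higher at 12 h (log2 2.43, SE 0.46, adjusted p = 0.00421). Its unstimulated group means were under 6 in both genotypes. It is a member only through its stimulated groups, so this rise is a description.

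Among the members that were lower in WT cells at 12 h, Slc66a2 read 8.01 and 7.98 without stimulus, 7.43 and 7.48 at 3 h and 6.61 and 6.72 at 12 h (2.52-fold lower at 12 h, log2 -1.33, SE 0.12, adjusted p = 6.59e-05). Slc10a7 was 2.75-fold lower (adjusted p = 0.000732). Slc16a6, a monocarboxylate carrier family member, was 2.18-fold lower (log2 -1.12, SE 0.17, adjusted p = 0.00101), having read 8.98 and 8.82 without stimulus, 8.58 and 8.81 at 3 h and 7.79 and 7.78 at 12 h. Slc25a53 was still 2.05-fold lower at 12 h (adjusted p = 0.00293). Slc2a3 was 2.04-fold lower (5.87 and 6.87 at 12 h, adjusted p = 0.0295), a call lost without unstimulated WT replicate 1 (0.109) or 2 (0.131) or WT 12 h replicate 1 (0.173).

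Slc15a2, a peptide importer of the plasma membrane, was not called at 12 h, and its replicates lay far apart. It read 7.68 and 8.60 in unstimulated WT cells, 7.24 and 7.84 at 3 h and 5.25 and 6.72 at 12 h, and 6.29 and 8.83, 5.85 and 8.15 and 4.19 (under the floor) and 5.60 in IkL/L cells. Replicate 2 was the higher in all 6 groups. The log2 difference at 12 h was -2.15 in WT (SE 0.93, adjusted p = 0.161) and -2.66 in IkL/L cells (adjusted p = 0.083). With the replicate number as a block within each genotype the adjusted p was 0.000175 in WT and 5.82e-05 in IkL/L cells.

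Between 3 h and 12 h of stimulation, members went down more often than up. In WT cells 16 were lower at 12 h than at 3 h and 10 higher, against 4.33% of all genes lower and 6.5% higher. Of the genes with the same minimum signal 10.9% were lower and 12.8% higher, against 19.8% and 12.3% of the members. In IkL/L cells 20 were lower and 10 higher, against 6.42% and 9.12% of all genes and 14.6% and 17.9% of those with the same minimum signal. Under housekeeping scaling the split was 15 lower and 4 higher in WT (21.1% higher against 38.5%) and 25 lower and 5 higher in IkL/L cells (16.7% against 33.3%). The 26 calls in WT became 17 without WT 3 h replicate 1 and 16 without WT 3 h replicate 2, and the 30 in IkL/L cells became 19 without IkL/L 3 h replicate 2. These values share the 3 h arrays with the comparison against unstimulated cells, so the values are given side by side and no more is read from them. Slc15a3 went down 5.23-fold in WT and 4.15-fold in IkL/L cells, Slc39a6 2.81-fold and 2.86-fold, Slc20a1 2.97-fold and 2.70-fold, and Slc7a1 2.18-fold and 2.63-fold. Slc38a1 went down 1.79-fold in WT (adjusted p = 0.0051; 0.0533 with only the arrays compared) and 2.62-fold in IkL/L cells (adjusted p = 0.000228). Slc41a1, a magnesium transporter, read 7.6 and 8.08 at 3 h and 6.3 and 6.5 at 12 h in IkL/L cells (2.72-fold lower, adjusted p = 0.0111), a call lost without IkL/L 3 h replicate 2 (0.0951) or IkL/L 12 h replicate 1 (0.0693).

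Of the 6 Slc25 members that fell in WT cells at 3 h, 5 were called higher at 12 h than at 3 h, on the same 3 h arrays, and Slc25a46 was not (log2 0.32, adjusted p = 0.0684). These 6 were picked by their low 3 h arrays, so a higher value at 12 h is partly set by that choice. How many of all genes that fell at 3 h went back up was not counted. The values that follow are a description. Slc25a12 was 2.84-fold higher at 12 h than at 3 h in WT (log2 1.5, SE 0.19, adjusted p = 0.000883) and 5.06-fold higher in IkL/L cells (log2 2.34, SE 0.19, adjusted p = 5.68e-05). Slc25a4 was 2.62-fold and 3.22-fold higher, and Slc25a45 1.99-fold and 2.72-fold. Slc25a11 was 1.66-fold higher in WT (adjusted p = 0.00935; 0.0754 without WT 3 h replicate 1 and 0.0575 without WT 12 h replicate 1; 0.113 under housekeeping scaling) and 2.21-fold higher in IkL/L cells (adjusted p = 0.000564). Slc25a53 was 1.97-fold higher in WT (adjusted p = 0.00814; 0.0561 without WT 3 h replicate 2 and 0.0647 without WT 12 h replicate 2) and 2.34-fold in IkL/L cells; with the mean of all its probe sets neither held (0.797 and 0.661). The choline transporter Slc44a1 read 5.70 and 6.26 at 3 h and 7.21 and 8.11 at 12 h in WT cells (3.2-fold higher, adjusted p = 0.0046; 0.0508 with only the arrays compared).

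In IkL/L cells 30 members rose and 15 fell at 3 h, against 9.82% and 10.6% of all genes and 24.5% and 20.3% of those with the same minimum signal; the members' shares were 37.0% and 18.5%. The class counts were close to those in WT: 10 of 16 amino acid and peptide carriers rose and 3 fell, and 7 of 20 Slc25 carriers rose and 6 fell. Slc15a3 read 7.45 and 8.09 without stimulus and 10.73 and 10.82 at 3 h (8.03-fold higher, log2 3.01, SE 0.21, adjusted p = 1.26e-05). Slc16a1 read 6.93 and 7.16, then 9.78 and 9.58 (6.21-fold, log2 2.63, SE 0.36, adjusted p = 0.000491), and Slc25a33 rose 5.01-fold (adjusted p = 0.000853). Slc43a2 read 8.16 and 8.30, then 3.77 and 3.81, both under the floor, a drop of 16.3-fold or more (log2 -4.44, SE 0.37, adjusted p = 2.93e-05). Slc25a45 read 7.47 and 7.65, then 5.22 and 5.03 (5.40-fold lower, log2 -2.43, SE 0.15, adjusted p = 7.62e-06), and Slc9a7 fell 3.74-fold (7.12 and 7.53, then 5.27 and 5.57, adjusted p = 0.00117).

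At 12 h in IkL/L cells 20 members were higher and 12 lower than without stimulus, against 9.72% and 7.87% of all genes. These 24.7% and 14.8% lie near the 22.8% and 16.5% of genes with the same minimum signal. Housekeeping scaling, which moves these differences by -0.23, left 5 higher and 12 lower, a share of higher calls of 29.4% against 62.5%. The 32 calls became 21 without unstimulated IkL/L replicate 1 and 15 without IkL/L 12 h replicate 2. Slc7a3 rose most: it read 5.08 and 5.78 without stimulus, 7.26 and 7.75 at 3 h and 7.94 and 9.48 at 12 h (9.77-fold at 12 h, log2 3.29, SE 0.46, adjusted p = 0.00089). As in WT cells this is a description, since Slc7a3 is a member only through its stimulated groups. Slc25a39 was 2.53-fold higher (adjusted p = 0.00103), Slc25a32 1.97-fold (adjusted p = 0.00143) and Slc39a10 1.82-fold (adjusted p = 0.000431), and these calls held under housekeeping scaling. Slc66a2 was 2.82-fold lower (adjusted p = 4.29e-05), Slc38a9 2.4-fold (adjusted p = 0.000619) and Slc20a1 2.23-fold (9.73 and 10.09 without stimulus, 8.55 and 8.95 at 12 h, adjusted p = 0.00207). Slc25a36, another mitochondrial carrier of pyrimidine nucleotides, read 9.13 and 9.14 without stimulus and 8.0 and 8.27 at 12 h, 1.99-fold lower (adjusted p = 0.00248).

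The second question was whether the response depended on the genotype. The WT and IkL/L responses share no arrays. Of the members that rose at 3 h, 26 were called in both genotypes (89.7% of the 29 in WT and 86.7% of the 30 in IkL/L cells), and of those that fell, 13 (86.7% of 15 in each). At 12 h the shared calls were 14 of 21 and 20 higher (66.7% and 70%) and 10 of 13 and 12 lower (76.9% and 83.3%). With the replicate block within genotype the shared calls at 12 h were 21 of 25 and 29 higher (84% and 72.4%) and 14 of 20 and 17 lower (70% and 82.4%). No member was called in opposite directions. The shared calls were not counted over all genes, so whether this sharing is particular to the carriers was not tested. In the test of the difference between the responses in limma no member passed at 3 h or at 12 h, while 7 and 9 members had an unadjusted p under 0.05; of all genes 0.0275% had a higher and 0.011% a lower response in IkL/L cells at 3 h, and 0.022% and 0% at 12 h. With the replicate block no member passed either test.

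**Figure D4:**
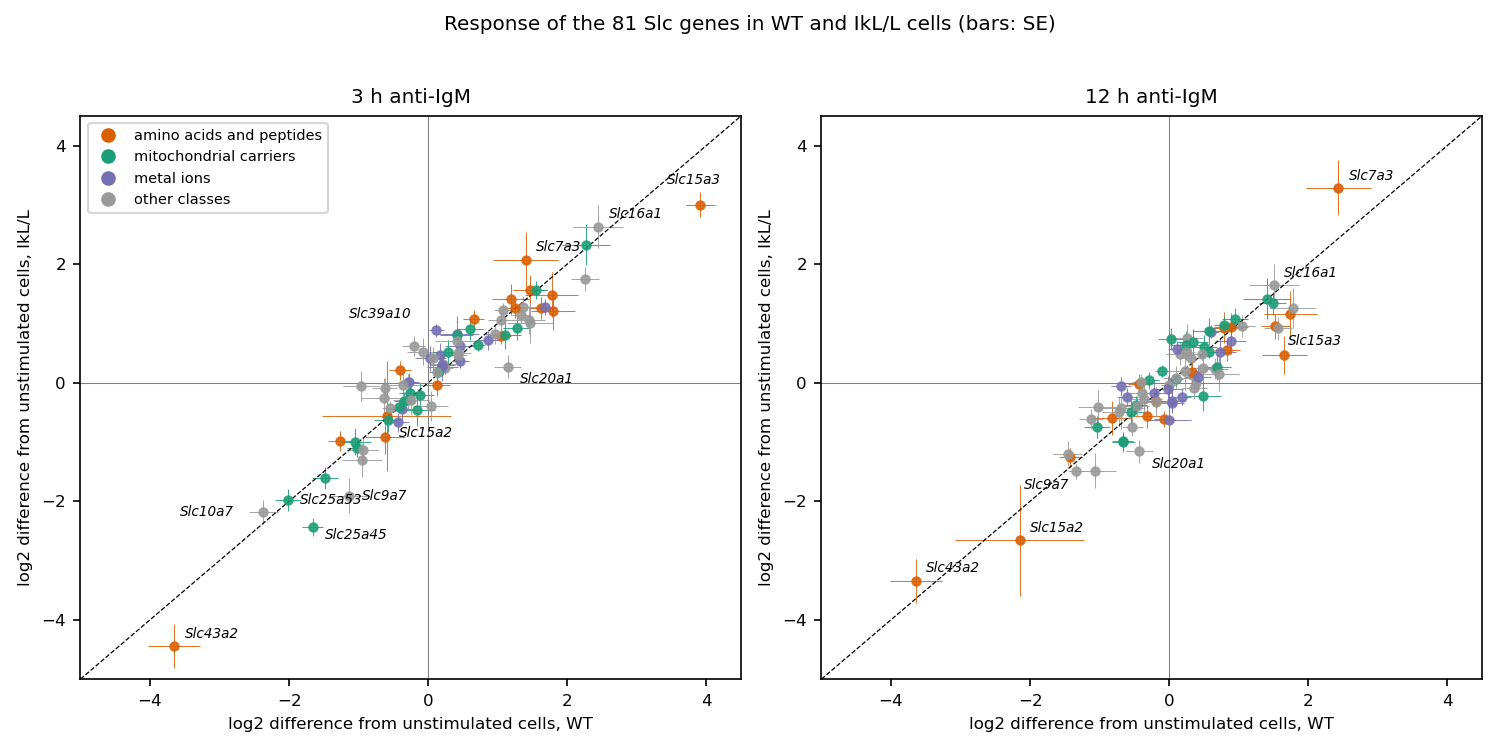
Log2 difference between stimulated and unstimulated cells for each of the 81 members, in WT (horizontal axis) and IkL/L cells (vertical axis), after 3 h (left) and 12 h (right) of anti-IgM; bars are SEs, the dashed line marks equal responses, and colours mark 3 substrate classes. Most points lie near the line; Slc43a2 lies at -3.65 and -4.44 at 3 h and Slc7a3 at 2.43 and 3.29 at 12 h.

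The member nearest to a genotype-dependent response was the zinc importer Slc39a10. It read 6.68 and 6.77 in unstimulated WT cells, 6.92 and 6.78 at 3 h and 7.30 and 7.37 at 12 h. In IkL/L cells it read 6.79 and 6.69, then 7.63 on both 3 h arrays, then 7.58 and 7.62. The log2 response at 3 h was 0.12 in WT and 0.89 in IkL/L cells (adjusted p = 0.000242), and the difference between these responses was 0.77 (SE 0.15, adjusted p = 0.25). Slc20a1 was the reverse in form: its log2 response at 3 h was 1.14 in WT and 0.27 in IkL/L cells, a difference of -0.87 (SE 0.27, adjusted p = 0.708).

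Compared directly, few members differed between the genotypes. Without stimulus 2 were higher in IkL/L cells and none lower at an adjusted p under 0.05 in limma, against 0.594% and 0.533% of all genes, while 22 had an unadjusted p under 0.05. Slc15a3 was 2.4-fold higher (7.45 and 8.09 against 6.35 and 6.66, log2 1.26, SE 0.21, adjusted p = 0.0255). The call was lost without unstimulated WT replicate 1 (0.153) or 2 (0.11) or unstimulated IkL/L replicate 2 (0.129), and under housekeeping scaling (0.129). Slc20a1 was 2.06-fold higher (9.73 and 10.09 against 8.98 and 8.74, log2 1.04, SE 0.19, adjusted p = 0.0338), lost without either unstimulated WT array, any 3 h array or unstimulated IkL/L replicate 2 (up to 0.287) and under housekeeping scaling (0.199). With the replicate block within genotype 10 members were called, 7 higher and 3 lower. The block removes the spread between the replicates of a genotype from the error, and a genotype difference has to be judged against that spread. Block p-values between genotypes, here and at 3 h and 12 h, are therefore too small. Calls made only with the block are a description. The purine carrier Slc43a3 (6.07 and 6.54 against 4.95 and 5.32, log2 1.17, adjusted p = 0.174) was among the 10 members (0.0079 with the block).

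At 3 h Slc39a10 was 1.72-fold higher in IkL/L cells (log2 0.78, SE 0.11, adjusted p = 0.00843) and Slc25a45 1.65-fold lower (log2 -0.73, SE 0.15, adjusted p = 0.0418), against 0.835% of all genes higher and 0.868% lower. The call of Slc39a10 was lost without WT 3 h replicate 2 (0.0918) or IkL/L 3 h replicate 2 (0.0845), with the mean of its probe sets (0.0814) and under housekeeping scaling (0.103). That of Slc25a45 was lost without any 1 of the arrays other than those of WT cells at 12 h (up to 0.321) and under housekeeping scaling (0.221). With the replicate block 12 members were called at 3 h, 7 higher and 5 lower, among them Slc43a2 (3.77 and 3.81, both under the floor, against 4.73 and 5.78, at least 2.07-fold lower, adjusted p = 0.0946; 4e-04 with the block) and the choline transporter-like Slc44a2 (9.64 and 9.27 against 10.42 and 10.85, log2 -1.18, adjusted p = 0.0524; 0.00327 with the block).

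At 12 h no member differed between the genotypes in limma, against 0.451% of all genes higher and 0.165% lower, while 17 members had an unadjusted p under 0.05. With the replicate block 3 members were called, all higher in IkL/L cells. Slc7a3 was 3.19-fold higher in IkL/L cells at 12 h (7.94 and 9.48 against 6.61 and 7.47, log2 1.67, SE 0.46, adjusted p = 0.209; 0.00825 with the block). Slc29a3 had a log2 difference of 0.52 (adjusted p = 0.149; 0.0437 with the block) and Slc35b1, which carries ATP into the ER, 0.58 (adjusted p = 0.328; 0.0367 with the block).

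Other Slc genes lay under the minimum and were left out by it, though 16 of the 266 reached a mean of 6 in at least 1 group. The nucleoside importer Slc29a1, with a mean of 5.82, rose by a log2 difference of 2.28 in WT (adjusted p = 0.00328) and 2.29 in IkL/L cells (adjusted p = 0.00318) at 3 h. The hexose transporter Slc2a6 fell by 2.41 and 2.16 on the log2 scale (adjusted p = 0.000699 and 0.00132). Slc37a4, which carries glucose 6-phosphate into the ER, fell by 1.51 in WT and 1.92 in IkL/L cells (adjusted p = 0.000108 and 2.8e-05). The lactate exporter Slc16a3 was under the floor on all 12 arrays. A probe set with the symbols Slc28a2b and Slc28a2, which names no single gene and so is no member, had a mean of 6.11. Its p-values come from a limma fit of all 45037 probe sets and are adjusted over these. It had a log2 difference of -2.29 in WT at 3 h (adjusted p = 0.000126). IkL/L minus WT it was -1.63 without stimulus (adjusted p = 0.0132), -1.19 at 3 h (0.0484) and -1.07 at 12 h (0.126). For this probe set no arrays were left out in turn.

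Carriers whose symbols do not begin with Slc, and genes that sense nutrients or control carriers, were counted from lists written from general knowledge. Of 40 measured carriers of other names 11 rose and 8 fell in WT cells at 3 h (27.5% and 20%), and 8 rose and 7 fell in IkL/L cells (20% and 17.5%). Of all genes 9.15% rose and 10.2% fell in WT, and 9.82% and 10.6% in IkL/L cells. Of genes with a mean of 6 or more 24.2% rose and 19.8% fell in WT cells. Neither list was chosen by signal, and both hold genes with group means under the floor, so neither share is a like comparison. The organic anion carrier Slco4a1 rose by a log2 difference of 2.33 in WT and 1.59 in IkL/L cells, Mfsd12, a lysosomal cysteine importer, by 1.98 and 1.74, and Sfxn1, which brings serine into mitochondria, by 1.29 and 1.55. Mfsd6 fell by 2.66 and 2.96 on the log2 scale. Spns2, an exporter of sphingosine 1-phosphate, went from a mean of 5.26 to 3.10, under the floor, in WT cells, at least 2.08-fold lower (adjusted p = 0.000237).

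Of 49 measured genes of nutrient sensing and carrier control 12 rose and 10 fell in WT cells at 3 h (24.5% and 20.4%). In IkL/L cells 11 rose and 12 fell (22.4% and 24.5%). Of all genes 9.15% rose and 10.2% fell in WT, and 9.82% and 10.6% in IkL/L cells. The limit on comparing list shares, given above, holds here too. Myc, a transcription factor that drives growth, rose by a log2 difference of 2.79 in WT and 2.15 in IkL/L cells. The leucine sensor Sesn2 rose by 1.10 and 1.45, while its relatives Sesn1 (-2.21 and -2.91) and Sesn3 (-1.18 and -1.45) fell. Lamtor2, a subunit of the complex that anchors mTORC1 at the lysosome, fell by 1.24 and 1.80 on the log2 scale, and the kinase gene Eif2ak3 by 1.56 and 2.23. These genes kept their calls with any single array left out. Atf4, the factor of the amino acid response, had log2 differences of 0.74 (adjusted p = 0.0106) and 0.64 (adjusted p = 0.0213); leaving out any of 3 arrays ended the first call (up to 0.0658) and any of 2 the second (up to 0.16).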

How the data were processed

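RNA of 12 samples was labelled in 2 cycles and hybridised to Affymetrix mouse arrays, per the labels' protocols. The deposited values are log2 signals that the authors made with RMA, per the submitters' processing notes; no version of RMA is named. RMA equalises the arrays' distributions, so a shift of all genes would not be seen. Of 45037 probe sets, 34945 had 1 symbol, 932 several and 9160 were not listed in the platform annotation; the brightest probe set stood for each of 18193 genes.

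limma 3.58.1 (R 4.3.3; lmFit, eBayes) fitted 1 mean per group over all 12 arrays, with 6 residual degrees of freedom, and 11 comparisons were adjusted by Benjamini-Hochberg over all genes at 0.05. The script was tested on simulated data: for WT cells at 3 h it recovered 49 of 100 genes changed by 1 on the log2 scale and 96 of 100 changed by 2, with 4 false calls. The simulation changed far fewer genes than were called in the data and gave the arrays independent noise. Its shares are therefore a check of the script and not the power of the real comparison. The floor, 4.21, stands for signal not told from background, and a fold against a group under it is a lower bound. The number of arrays limits the precision. Within a genotype, deviations of same-numbered arrays from their group means correlated over 5607 bright genes (r = 0.359 to 0.62), across genotypes at 0.0258 to 0.322, so replicate numbers were taken to pair arrays within a genotype. Alternatives were the replicate block, each array left out, other probe set, filter, variance and array weight settings, only the arrays compared, 2 other scalings and other minimum means.

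Members and lists were chosen with earlier results of these data known. Named were the 8 largest rises and 8 largest falls in each response and the 5 largest each way in the other comparisons, among calls whose groups do not overlap, the brightest and most changed member of a class, and a set of well-known carriers; Slc15a2 and block-only calls were named after their values were seen.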

Additional observations from a re-analysis of the deposited data

How the results depend on the processing

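No called log2 difference of a named member changed sign under any setting tried. Counts of changed members are given here as called under each setting. With the replicate block within genotype the genotype comparison gave 10 members without stimulus, 12 at 3 h and 3 at 12 h. With 1 shared replicate block it gave 5, 8 and 1, and without a block 2, 2 and 0. Between genotypes the p-values with the block within genotype are too small, as said above. The block within genotype ended no call, and gave 49 in WT and 55 in IkL/L at 3 h and 45 and 46 at 12 h. With housekeeping scaling WT at 12 h gave 19 and IkL/L at 12 h 17, and the genotype comparisons without stimulus and at 3 h gave 0. With only the arrays compared WT 12 h against 3 h gave 16, IkL/L at 12 h 19, and the genotype comparisons without stimulus and at 3 h 0. The genotype comparison at 3 h gave 4 without the dimmest genes, 4 with an intensity trend and 1 with median centring. With a minimum mean of 5.5 the counts at 3 h were 50 in WT and 53 in IkL/L, and with 6.5 they were 38 and 39. Leaving out 1 array, or, in an alternative chosen after seeing the data, 1 replicate of a genotype in all conditions, gave 24 to 44 in WT at 3 h (29 without WT replicate 2 in all conditions), 12 to 36 in WT at 12 h, 3 to 28 in WT 12 h against 3 h (11 without WT replicate 2 in all conditions), 25 to 46 in IkL/L at 3 h (29 without IkL/L replicate 2 in all conditions), 15 to 33 in IkL/L at 12 h, 16 to 32 in IkL/L 12 h against 3 h, and 0 to 2, 0 to 3 and 0 to 1 between genotypes without stimulus, at 3 h and at 12 h. A lone array left in a group is assumed to vary like the others. The causes were not tested. With 2 arrays per group, changes near the floor of 4.21 and differences between genotypes are the least certain.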
